A study of Mus musculus with 577 samples.

Results

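The 80 libraries described here compare the female germ cell, taken from ovarian sections, with a cultured pluripotent cell, taken from sections of a frozen cell block. They are the 44 samples labelled as single oocytes and the 36 samples labelled as single mESCs (mouse embryonic stem cells) of the class LCM, out of the 577 samples of the series, and they were chosen by those labels alone. LCM is laser capture microdissection, by which a cell is cut from a stained section under the microscope and dropped into lysis buffer. Both cell types were lysed by DRaqL, a detergent lysis that is quenched before cDNA synthesis, and amplified by SC3-seq, a protocol that reads the 3′ ends of polyadenylated RNA of 1 cell. The question that the comparison answers is how far germline and pluripotency transcripts measured in the same way from sections separate the cells.

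The oocytes came from ovaries of 8-week-old female mice and were taken from follicles that looked morphologically normal. The labels place 14 of them in primary follicles and 30 in secondary to antral follicles. The mESCs were a culture in 2iLIF, which is a medium with the GSK inhibitor CHIR99021, the MEK inhibitor PD0325901 and LIF. No strain, genotype or cell line is named, and the labels name neither a mouse for an oocyte nor more than 1 culture for the mESCs. The ovarian sections were fixed and stained in isopropanol and the cell-block sections in ethanol. Tissue against culture, the alcohol, the deposited table and the number of amplification cycles all changed with the cell type, so that their parts cannot be told apart. A section holds only a slice of a grown oocyte, and RPM gives the make-up of the RNA and not its amount, so that the quantity of a transcript per cell was not measured.

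Each cell type therefore counted as 1 sample. An SD below is the spread over the cells of a type, and the 2 types were compared without a test. Levels are means of log2 (RPM+1) ± SD (n = 44 oocytes and n = 36 LCM mESCs), where RPM is the count of a gene scaled to 1000000 reads on protein-coding genes of that library, and a difference is the oocyte mean minus the LCM mESC mean. A gene was counted as higher in a cell type when the means differed by more than 1.8 and at least 1 of the 80 cells was above 4. Groups were said not to overlap when every cell of a type was above every cell of the other.

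Oocytes in growing follicles are arrested in the prophase of meiosis and store RNAs and proteins for the maturing egg and the early embryo. They secrete the zona pellucida, the glycoprotein coat that sperm bind, and signal to the surrounding granulosa cells through ligands of the TGF-β family. Mouse ESCs in 2iLIF divide quickly and keep a network of transcription factors around Pou5f1, Sox2 and Nanog that marks the naive state of the epiblast. Oct4, the product of Pou5f1, is also known from the oocyte.

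The start-site regions of 3 genes with large differences are shown here, since the text returns to them. They run from 250 bases before the annotated start to 50 bases after it, on the strand of the gene, as RefSeq gives them on GRCm38.p6. Zp3, which encodes the sperm-binding zona glycoprotein, has its region at chr5:135979855-135980154 on the plus strand. Padi6, which encodes an oocyte protein of cytoplasmic lattices, has its region at chr4:140742594-140742893 on the minus strand. Nanog, which encodes a homeodomain factor of naive pluripotency, has its region at chr6:122707239-122707538 on the plus strand. In the first 2 sequences capitals mark the E-box CANNTG, the letters that basic helix-loop-helix factors such as Figla are known to bind, and in the third they mark CATTGT, letters that SOX factors such as Sox2 are known to bind. Both motifs were searched on both strands.
Zp3: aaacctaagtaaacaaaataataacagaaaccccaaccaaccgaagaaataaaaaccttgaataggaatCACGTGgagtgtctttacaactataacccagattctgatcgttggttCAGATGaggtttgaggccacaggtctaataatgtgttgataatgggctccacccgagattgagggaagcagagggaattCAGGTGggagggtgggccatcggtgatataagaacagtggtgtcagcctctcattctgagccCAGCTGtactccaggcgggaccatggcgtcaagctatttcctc
Padi6: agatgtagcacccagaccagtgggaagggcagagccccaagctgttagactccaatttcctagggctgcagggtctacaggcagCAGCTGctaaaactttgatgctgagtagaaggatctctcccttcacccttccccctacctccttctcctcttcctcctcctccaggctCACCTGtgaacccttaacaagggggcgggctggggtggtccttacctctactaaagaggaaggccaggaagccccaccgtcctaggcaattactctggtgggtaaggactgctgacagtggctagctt
Nanog: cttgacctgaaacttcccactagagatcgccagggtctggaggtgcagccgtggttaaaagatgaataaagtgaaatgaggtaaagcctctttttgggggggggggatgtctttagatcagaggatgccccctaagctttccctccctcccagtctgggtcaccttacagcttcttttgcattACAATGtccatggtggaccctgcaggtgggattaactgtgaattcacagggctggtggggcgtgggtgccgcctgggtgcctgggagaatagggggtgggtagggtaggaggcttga
The E-box letters occurred 4 times in the Zp3 region, at -181, -134, -55 and 8 from the start, and 2 times in the Padi6 region, at -166 and -78. The SOX letters occurred 1 time in the Nanog region, at -67, as the reverse strand of the motif. Of 32851 start-site regions of the same length, 72.3% held the E-box letters and 12.6% held the SOX letters. A match describes the letters and does not show a bound site. Zp1, Zp2 and Gdf9 had no entry among these regions, so that their sequences were not searched for either motif.

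The oocytes held 873206 to 2338750 reads on protein-coding genes (median 1528484) and the LCM mESCs held 379431 to 3440997 (median 1951462). Oocytes had reads on 13556 ± 871 genes (SD, n = 44) and LCM mESCs on 9886 ± 697 (SD, n = 36), a difference of 3670 genes. The ranges met, from 10912 to 15666 genes in oocytes and from 7528 to 11223 in LCM mESCs. After every library was thinned to the 379431 reads of the shallowest, the values were 11530 ± 840 and 8073 ± 526 genes, and no oocyte (lowest 9365) overlapped an LCM mESC (highest 9043). The 100 most abundant genes of a cell took 18.7% of its reads in oocytes and 32% in LCM mESCs.

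**Figure D1:**
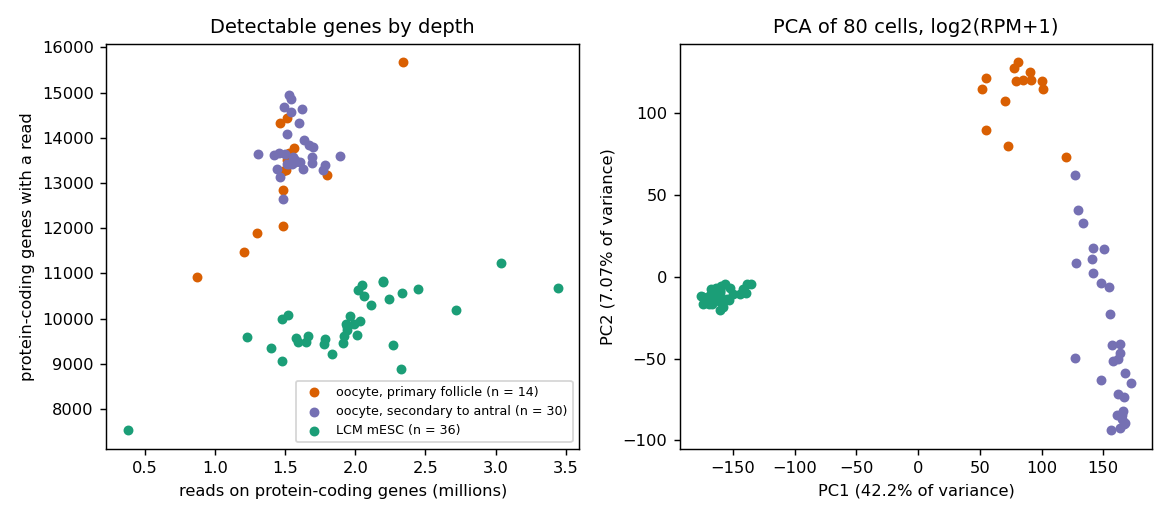
Left, protein-coding genes with at least 1 read against reads on protein-coding genes (axis scaled to 1000000 reads) in each of the 80 cells, by class. Right, the first against the second principal component of the same cells, where LCM mESCs lie to the left, between -175.9 and -135.5 on the first component, and oocytes of primary follicles lie above those of later follicles.

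Some libraries were more alike than others of their class. Among the 14 oocytes of primary follicles, 5 pairs whose sample numbers lie 8 apart (33 with 41, 34 with 42, 35 with 43, 36 with 44, 37 with 45) shared their deviations from the class mean, with Pearson r across genes from 0.677 to 0.922. No other pair of primary-follicle oocytes exceeded 0.0316. The highest value was 0.564 among the later oocytes and 0.202 among the LCM mESCs. No 2 libraries held identical counts, so each library was kept, but the 14 libraries held 9 distinct profiles, and whether a pair came from 1 cell was not tested. With each pair summed, 4932 genes instead of 4842 were higher in oocytes, and each primary-follicle mean of a gene below is followed by its mean over the 9 profiles, in which a pair counts as 1 library. The LCM mESC SL01 is given as a freshly dissociated cell in the source data of the study, and without it the counts were 4845 genes higher in oocytes and 1158 higher in LCM mESCs.

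Genes with higher levels in oocytes outnumbered those with higher levels in LCM mESCs. Of 14608 genes above 4 in at least 1 cell, 4842 were higher in oocytes, which is 33.1%, and 1165 were higher in LCM mESCs, which is 7.98%. The groups did not overlap for 434 genes (2.97%), with oocytes above in 293 (2.01%) and LCM mESCs above in 141 (0.965%). The median gene was 0.94 higher in oocytes, and the split of the calls moved with the scale. Relative to that median, 2815 genes were higher in oocytes and 2358 in LCM mESCs. Oocytes took 80.6% of the calls with RPM and 57.5% with upper-quartile scaling.

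The first principal component held 42.2% of the variance and parted the cell types, with oocytes between 51.7 and 172.5 and LCM mESCs between -175.9 and -135.5. The second held 7.07% and spread the oocytes by follicle, from 73.1 to 131.1 in primary follicles and from -93.8 to 62.2 in later ones. Across 20899 genes, the median Pearson r was 0.828 for 946 pairs of oocytes, 0.782 for 630 pairs of LCM mESCs and 0.590 for 1584 pairs of an oocyte with an LCM mESC. Each correlation runs over genes within libraries, and genes are not replicates.

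The 4 markers by which the cell types were to be known did not all part them. Nanog levels in LCM mESCs had a lowest, median and highest value of 5.97, 7.50 and 8.71, and in oocytes of 0.00, 0.00 and 1.47. Every LCM mESC was above every oocyte, with a difference of -7.02. Zp3 levels ran the other way, with a lowest, median and highest value of 9.91, 12.09 and 13.29 in oocytes and of 0.00, 1.44 and 7.72 in LCM mESCs, and the groups did not overlap. The lowest, median and highest levels of Dppa3, a maternal factor that protects methylated DNA in the zygote and is patchy in ESC cultures, were 9.32, 10.29 and 11.64 in oocytes and 0.00, 3.04 and 7.76 in LCM mESCs. Its difference was 7.05 and the groups did not overlap.

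The oocyte markers were low but not absent in LCM mESCs. Zp3 had a read in 29 of 36 LCM mESCs (80.6%) and Dppa3 in 31 (86.1%). With the reads of all cells summed, Zp3 was at 4411 RPM in oocytes (exact Poisson 95% interval from 4395 to 4426) and at 21.9 RPM in LCM mESCs (from 20.8 to 23). Dppa3 was at 1377 RPM (from 1368 to 1386) and 31.6 RPM (from 30.3 to 33). In the opposite direction, Nanog was at 186 RPM in LCM mESCs (from 183 to 189) and at 0.439 RPM in oocytes (from 0.296 to 0.627). These intervals cover counting error only.

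Pou5f1 was the exception among the markers, with 33.1 RPM in oocytes (exact Poisson 95% interval from 31.8 to 34.5) and 9.16 RPM in LCM mESCs (from 8.46 to 9.89) over summed reads. Its lowest, median and highest levels were 3.29, 4.98 and 7.23 in oocytes and 0.00, 1.57 and 6.12 in LCM mESCs, so that the mean was higher in oocytes by 2.86 and the groups overlapped. Freshly dissociated mESCs were at 2.45. Exon sums came from libraries with Y-shaped adapters, which cover more than the 3′ end. In these sums Pou5f1 was at 3.64 in 5 oocytes, all of secondary to antral follicles, and at 1.75 in 10 mESCs. The gene lies at chr17:35506018-35510772 on the plus strand of GRCm38, and the antisense gene Gm19553 overlaps its 3′ part at chr17:35509077-35510551 on the minus strand. Whether the counting used the strand is not given in the sources used here, and without it the reads of the 2 genes cannot be told apart. Pou5f1 thus did not tell the mESCs from the oocytes here, and their label was checked with Nanog and the genes that follow.

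**Figure D2:**
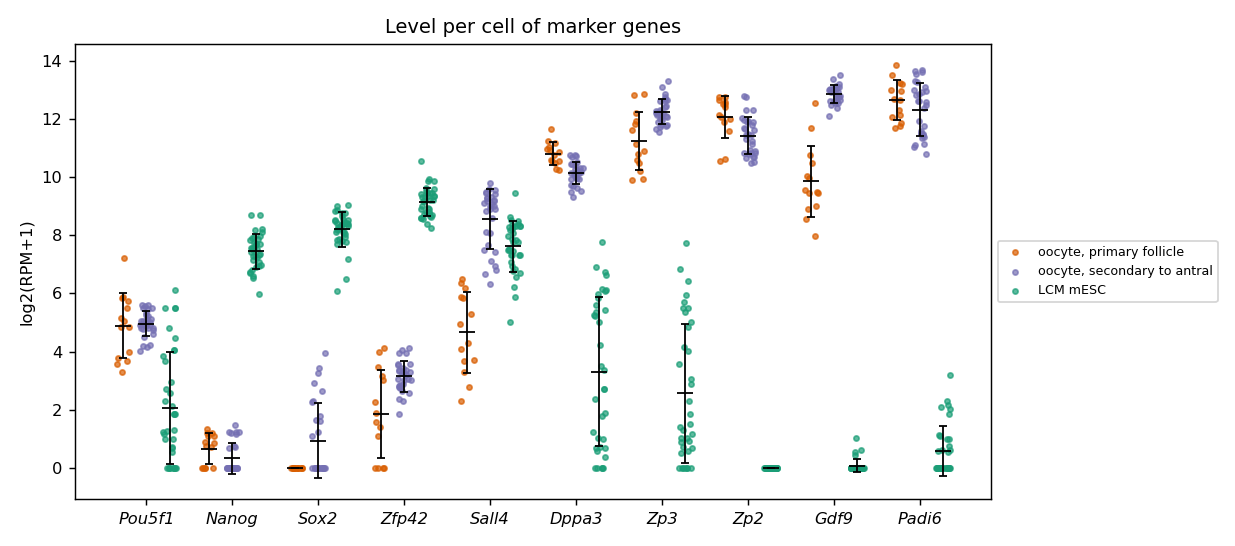
Level, log2 (RPM+1), of 10 marker genes in each cell, with the mean and SD over cells in black; orange points are 14 oocytes of primary follicles, violet points 30 oocytes of secondary to antral follicles and green points 36 LCM mESCs. Nanog, Sox2 and Zfp42 are above in every LCM mESC, Dppa3, Zp3, Zp2, Gdf9 and Padi6 in every oocyte, whereas Pou5f1 and Sall4 overlap.

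The core of the naive pluripotency network was higher in LCM mESCs. Of 25 network genes, 19 were higher in LCM mESCs and 3 in oocytes, beside 7.98% and 33.1% of all genes tested. The median difference was -4.30, beside 0.94 over all genes tested. LCM mESCs lay above without overlap for 8 members, beside 0.965% of all genes. The same shares over all genes tested, with 2.01% for oocytes above without overlap, are the background of every list. Sox2, the partner of Oct4 on DNA, was at 8.20 ± 0.61 in LCM mESCs and 0.64 ± 1.15 in oocytes. Fgf4, the growth factor that Oct4 and Sox2 are known to activate, was at 7.76 ± 1.10 and 0.14 ± 0.34. Zfp42, the naive marker also called Rex1, was at 9.15 ± 0.49 and 2.74 ± 1.12. Utf1, a chromatin factor of ESCs, had no read in any of the 44 oocytes and a mean level of 6.52 ± 1.49 in LCM mESCs.

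Oocytes also held several members of the network. Esrrb, a nuclear receptor of the naive state, was at 4.10 ± 2.76 in oocytes and 8.53 ± 0.62 in LCM mESCs, and its mean was 1.38 ± 0.89 (1.28 over the 9 profiles) in primary and 5.37 ± 2.38 in later follicles. Dppa5a, an RNA-binding protein with 1 near-identical copy at its 3′ end, was at 7.55 ± 1.23 and 10.76 ± 0.51. Sall4, a zinc-finger factor of both lineages, differed by -0.30, Zfp296 by 0.85 and Dppa2 by 1.77, and these 3 were not called. Sall4 was at 4.65 ± 1.39 (4.68 over the 9 profiles) in primary and 8.56 ± 1.02 in later follicles, on either side of the mESC mean of 7.62 ± 0.88. Lin28a, which binds let-7 precursors, was at 3.33 ± 1.44 in oocytes and 1.07 ± 1.52 in LCM mESCs and was, with Dppa3 and Pou5f1, 1 of the 3 members higher in oocytes.

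The genes of the egg coat had among the largest differences. Of 6 genes of the zona and egg surface, 5 were higher in oocytes, beside 33.1% of all genes tested, and none was higher in LCM mESCs, with a median difference of 9.11. Zp2, whose product is cleaved after fertilization to block further sperm, was at 11.63 ± 0.73 and had no read in the 36 LCM mESCs. Against a floor of 3 counts over those libraries, its share of reads was at least 82858-fold higher in oocytes. Zp1, the crosslinker of the coat, was at 10.70 ± 0.63 in oocytes and 0.20 ± 0.93 in LCM mESCs, and Zp3, whose start-site region is printed above, was at 11.93 ± 0.81 and 2.57 ± 2.40.

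Astl, the protease that cleaves Zp2, was at 8.87 ± 1.11 and had no read in LCM mESCs. The exception was Cd9, a tetraspanin for gamete fusion that many cells carry, at 6.92 ± 0.70 in oocytes and 6.04 ± 1.49 in LCM mESCs, which was not called. Izumo1r, the receptor for the sperm protein Izumo1, was at 6.66 ± 2.49 and ranged down to 0, with means of 3.68 ± 1.91 (3.99 over the 9 profiles) in primary and 8.05 ± 1.13 in later follicles. The 6 genes together took 1.08% of an oocyte's reads and 0.012% of an LCM mESC's.

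Growth factors of the oocyte, most of which act on granulosa cells, and the receptor Kit were higher in oocytes for 5 of 5 listed genes, beside 33.1% of all genes tested, with a median difference of 5.57. Gdf9, the TGF-β family ligand needed for growth past the primary follicle, had a lowest, median and highest level of 7.98, 12.65 and 13.52 in oocytes and of 0.00, 0.00 and 1.03 in LCM mESCs. It was at 9.85 ± 1.21 (9.96 over the 9 profiles) in primary follicles and 12.86 ± 0.30 in later ones. Bmp15, its X-linked partner, was at 8.52 ± 2.08, with 5.77 ± 0.91 (5.88 over the 9 profiles) in primary and 9.81 ± 0.82 in later follicles. Fgf8, which acts with Bmp15 on cumulus glycolysis, was at 4.51 ± 2.26 with no read in LCM mESCs. Kit, the receptor for granulosa-derived Kit ligand, was nearest between the types, at 6.60 ± 0.84 in oocytes and 4.07 ± 1.80 in LCM mESCs.

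The transcription factors of the oocyte were higher in oocytes for 9 of 11 genes, beside 33.1% of all genes tested, and for 5 of these the groups did not overlap, beside 2.01%. Nobox, a homeodomain factor of folliculogenesis, was at 9.53 ± 0.46 and had no read in LCM mESCs, a share at least 18025-fold higher in oocytes against the floor. Lhx8, a LIM-homeodomain factor, was at 7.96 ± 0.63 and 0.10 ± 0.27. Figla, the basic helix-loop-helix factor known to act on the zona genes, was at 6.93 ± 1.25 with no read in LCM mESCs, and was at 8.46 ± 0.76 (8.60 over the 9 profiles) in primary and 6.23 ± 0.66 in later follicles. Sohlh1, a factor of early follicles, was at 8.70 ± 1.00 (8.62 over the 9 profiles) in primary and 3.00 ± 2.21 in later follicles, with no read in LCM mESCs.

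The Obox homeobox genes had the opposite order, with Obox1 at 5.12 ± 1.52 (5.12 over the 9 profiles) in primary and 10.67 ± 2.30 in later follicles and Obox2 at 4.13 ± 1.47 (4.13 over the 9 profiles) and 9.68 ± 2.31. Obox1 and Obox2 share near-identical 3′ ends, so that their reads may not be told apart. The 2 members that were not called were Obox6, at 0.19 ± 0.40 in oocytes and 0.55 ± 1.36 in LCM mESCs, and Sohlh2, at 3.84 ± 1.87 and 2.45 ± 2.74.

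The oogenesins and oocyte-secreted proteins, multigene families of the growing oocyte, were higher in oocytes for 7 of 7 genes and did not overlap for any of the 7. Their median difference was 7.40. The median difference from LCM mESCs was 4.33 in primary and 8.83 in later follicles. Oosp1 was at 8.79 ± 2.74 over all oocytes, at 5.07 ± 0.88 (5.27 over the 9 profiles) in primary follicles and at 10.53 ± 1.00 in later ones. Oog1, which has 2 near-identical copies at its 3′ end, was at 5.04 ± 1.33 (5.23 over the 9 profiles) and 10.22 ± 1.59.

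The subcortical maternal complex, a protein assembly under the egg membrane that the embryo needs for its first divisions, was higher in oocytes for 15 of 15 genes together with the NLRP family, and 7 did not overlap. The median difference was 6.60. Padi6 levels had a lowest, median and highest value of 10.80, 12.59 and 13.87 in oocytes and of 0.00, 0.00 and 3.19 in LCM mESCs. Nlrp5, also called Mater, was at 10.40 ± 0.79 with no read in LCM mESCs. Tle6 was at 11.46 ± 0.84 and 1.05 ± 1.80, and Nlrp14 at 11.12 ± 0.56 and 0.24 ± 1.03. Other members had reads in LCM mESCs, where Ooep was at 4.89 ± 1.49 and Khdc3 at 3.62 ± 2.86, against 11.15 ± 0.55 and 8.22 ± 1.00 in oocytes. The 15 genes took 1.98% of the reads of an oocyte and 0.0139% of those of an LCM mESC.

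Genes for the storage and decay of maternal mRNA were higher in oocytes for 17 of 20, with a median difference of 4.89. Zar1, which binds stored mRNA, was at 10.95 ± 1.20 and 0.19 ± 0.39. Btg4, the adaptor that brings deadenylase to maternal mRNA at maturation, was at 8.77 ± 1.92 with no read in LCM mESCs. Lsm14b was at 8.50 ± 0.91 and 0.44 ± 0.66, and Ybx2, the Y-box protein of germ cells, at 8.34 ± 0.44 and 1.04 ± 1.75. The 3 members that were not called were Igf2bp3 (-0.96), Zfp36l2 (1.42) and Eif4enif1 (1.67), and the first had the higher mean in LCM mESCs.

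Germline and piRNA genes were higher in oocytes for 13 of 16 tested, with a median difference of 4.98, and 1 of 17, Piwil4, was below the level limit in all 80 cells. Tdrd1, a Tudor scaffold of piRNA granules, was at 8.65 ± 0.45 and 0.10 ± 0.59, Gtsf1 at 8.82 ± 0.50 and 0.58 ± 0.89, and Mael at 7.05 ± 0.95 and 0.46 ± 1.26. Dazl, the RNA-binding protein of germ cells, was at 8.35 ± 0.87, but its highest LCM mESC was at 7.97 and the groups overlapped.

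Ddx4, the helicase also called Vasa and a defining marker of germ cells, went against its list in the 3′ counts. Its lowest, median and highest levels were 6.84, 8.48 and 9.36 in oocytes and 8.28, 9.34 and 10.25 in LCM mESCs, and it was at 9.05 in 57 granulosa cells, which are somatic. In the exon sums it was at 5.79 in 5 oocytes and 0.62 in 10 mESCs. The FGF receptor gene Fgfr2 gave the same contrast, with 3′ levels of 9.98 ± 0.43 in oocytes, 11.18 ± 0.30 in LCM mESCs and 10.50 in granulosa cells, but exon sums of 5.01 and 0.00. The annotated span of Fgfr2, chr7:130162451-133123350, overlaps 30 other protein-coding genes. The 3′ counts of these 2 genes were high in all 3 cell types. Their exon sums, for which there were no granulosa libraries, were higher in oocytes than in mESCs.

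The genes of meiotic prophase were mixed. Of 17 tested, 7 were higher in oocytes (41.2%) and 1 in LCM mESCs (5.88%), shares near the 33.1% and 7.98% of all genes tested, with a median difference of 1.35. The members higher in oocytes included Sycp3, a lateral element of the synaptonemal complex, at 6.18 ± 1.58 and 1.34 ± 1.99, and Smc1b, the meiotic cohesin, at 5.94 ± 1.65 and 1.73 ± 0.68. Sycp3 was at 8.13 ± 0.89 (7.97 over the 9 profiles) in primary and 5.28 ± 0.81 in later follicles, and Smc1b at 7.74 ± 1.32 (7.54 over the 9 profiles) and 5.11 ± 1.00, so both means were nearer to the mESCs in later follicles. Sycp2, at 5.07 ± 1.36 and without a read in LCM mESCs, was the only member without overlap. Rec8, the meiotic kleisin, was the member higher in LCM mESCs, at 2.17 ± 2.43 against 0.26 ± 0.67. Spo11 and Stra8, which act at the entry into meiosis, were below the level limit in all 80 cells.

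Among 17 tested genes of meiotic arrest and maturation, 10 were higher in oocytes and none in LCM mESCs, with a median difference of 2.99. Mos, the kinase upstream of MAPK in the maturing egg, was at 8.54 ± 1.87 and 0.02 ± 0.10. Plat, the tissue plasminogen activator stored as dormant mRNA, was at 7.72 ± 1.60 with no read in LCM mESCs, and Wee2, the oocyte kinase that holds Cdk1 inactive, was at 7.16 ± 1.81 with no read either. Pde3a, the phosphodiesterase of cAMP in oocytes, was at 6.38 ± 1.24 and 0.19 ± 0.51. Ccnb1, the cyclin of maturation and of mitosis, had almost the same mean in both types, at 8.94 ± 1.66 and 9.01 ± 1.13, but was at 6.89 ± 1.05 (7.09 over the 9 profiles) in primary and 9.89 ± 0.78 in later follicles.

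**Figure D3:**
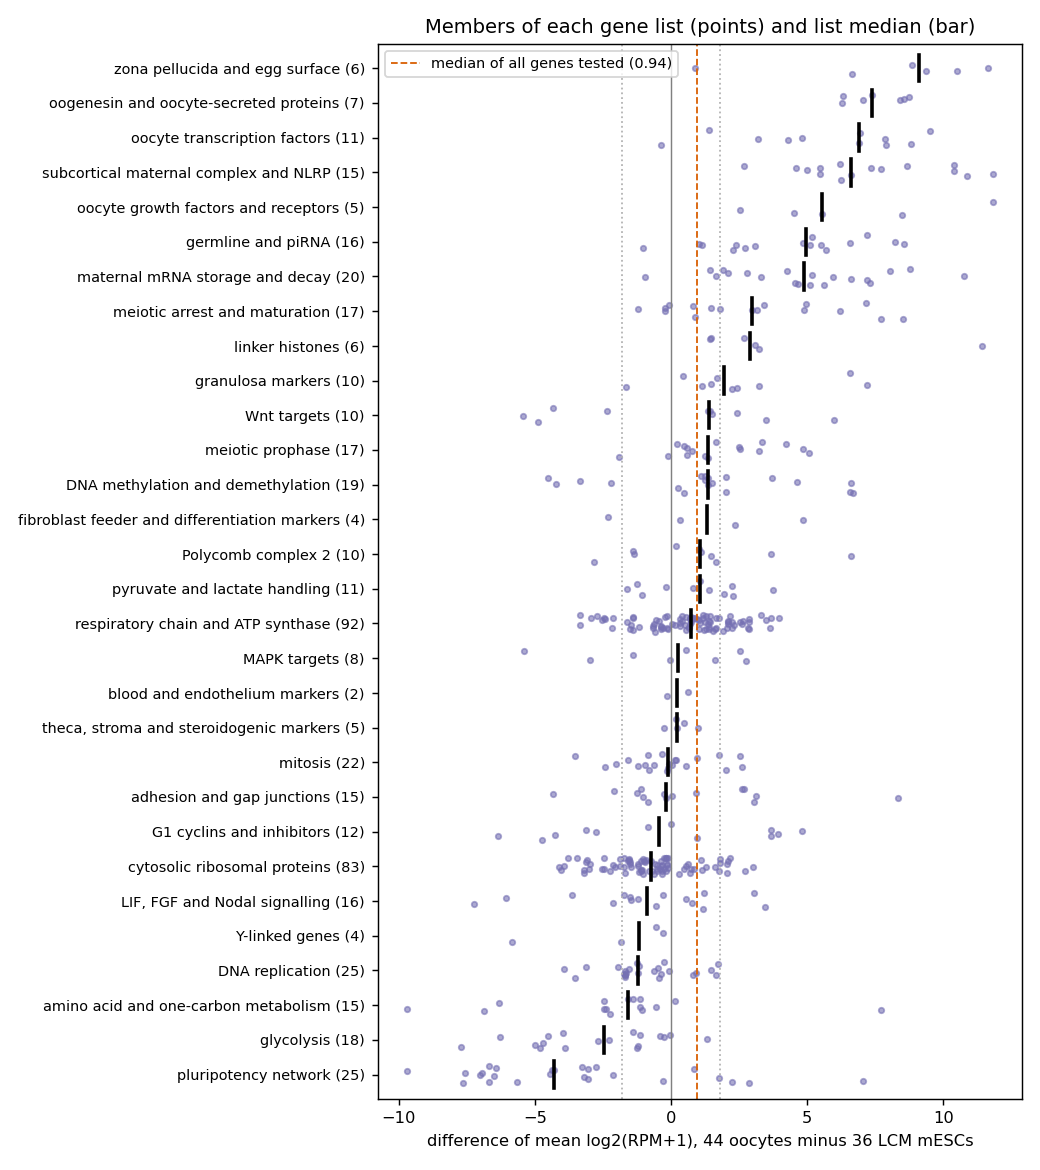
Difference of mean log2 (RPM+1), oocytes minus LCM mESCs, for each tested member of the 30 gene lists (points, with the number of members after the list's name) and the list median (black bar). Dotted lines mark ±1.8 and the dashed line the median of all genes tested (0.94); the lists of the egg coat, the oogenesins and the maternal complex lie at the right and those of pluripotency and glycolysis at the left.

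Most genes of DNA replication (21 of 25) and of mitosis (16 of 22) were not called, whereas 41.1% of all genes tested were called. Of 25 genes of DNA replication, 4 were higher in LCM mESCs and none in oocytes, with a median difference of -1.23, and with upper-quartile scaling 14 were higher in LCM mESCs. Pcna, the sliding clamp, was at 9.57 ± 0.71 in LCM mESCs and 6.43 ± 1.03 in oocytes, Mcm3, of the replicative helicase, at 8.25 ± 0.91 and 4.74 ± 1.61, and Ccne1, a cyclin of the G1 to S transition, at 6.98 ± 1.54 and 3.06 ± 1.68. Dut, the dUTPase, was at 8.31 ± 0.90 and 6.38 ± 0.53. Mcm10, an initiation factor, had nearly equal means of 6.49 ± 1.34 and 6.40 ± 1.15. No member of the list was without overlap, but only 2.97% of all genes tested were, a share at which a list of this size may hold none.

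Of 22 mitosis genes, 3 were higher in each type (13.6%), beside 33.1% of all genes tested for oocytes and 7.98% for LCM mESCs. The median difference was -0.12, with -1.21 for primary and 0.36 for later follicles. In exon sums, which hold oocytes of later follicles alone, it was 0.73. Top2a, the topoisomerase of dividing cells, was at 5.04 ± 1.67 in oocytes and 8.58 ± 1.20 in LCM mESCs, and Cenpa, the centromeric histone, at 5.43 ± 1.88 and 7.83 ± 1.16. Birc5, of the chromosomal passenger complex, was at 9.36 ± 0.41 and 6.83 ± 1.35, and Nusap1, a spindle protein, at 8.41 ± 1.09 and 5.81 ± 2.80. Tpx2, a spindle assembly factor, had means of 6.63 ± 0.57 and 6.60 ± 1.65. With upper-quartile scaling no member was higher in oocytes and 8 were higher in LCM mESCs.

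The regulators of G1 differed by member. Of 12 tested, 5 were higher in LCM mESCs (41.7%), beside 7.98% of all genes tested, and 4 in oocytes (33.3%), near the 33.1% of all genes. Ccnd1, a D-type cyclin, was at 6.61 ± 1.07 in LCM mESCs and 0.25 ± 0.56 in oocytes without overlap, and its kinase Cdk4 was at 9.49 ± 0.45 and 5.22 ± 1.21, also without overlap. Ccnd2 had the reverse, at 5.05 ± 1.93 in oocytes and 0.23 ± 1.06 in LCM mESCs, and it was at 8.35 in granulosa cells. Of the inhibitors of cyclin-dependent kinases, Cdkn1b and Cdkn1c were at 4.61 ± 0.87 and 4.57 ± 1.09 in oocytes and at 0.66 ± 0.88 and 0.90 ± 1.71 in LCM mESCs, while Cdkn1a was at 2.13 ± 1.92 and 5.26 ± 1.61. Mycn, a transcription factor of proliferating cells, was at 5.11 ± 1.41 in LCM mESCs and 0.39 ± 0.59 in oocytes.

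Glycolytic genes leaned to LCM mESCs. Of 18, 10 were higher in LCM mESCs, beside 7.98% of all genes tested, and none in oocytes, 7 of them without overlap, with a median difference of -2.47. Ldha, the subunit of lactate dehydrogenase that favours lactate, had a lowest, median and highest level of 8.40, 9.89 and 11.43 in LCM mESCs and of 0.00, 2.15 and 5.99 in oocytes. Slc2a3, a glucose transporter, was at 9.41 ± 0.70 and 3.12 ± 1.43, and Pgam1 at 9.81 ± 0.38 and 4.83 ± 1.41. The enzymes were not absent from oocytes, where Pkm was at 8.89 ± 0.37 and Aldoa at 7.23 ± 0.85, against 10.13 ± 0.42 and 11.18 ± 0.43 in LCM mESCs. Gapdh was at 7.16 ± 1.12 and 9.82 ± 0.53, but 62 near-identical copies of its 3′ end could share its reads. The list took 0.654% of reads in oocytes and 1.55% in LCM mESCs.

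Ldhb, the other subunit, was the member that went the other way. It was at 12.16 ± 0.65 in oocytes and 10.83 ± 0.82 in LCM mESCs, with a difference of 1.32 that was not called. Genes for the use of pyruvate, the substrate of the growing oocyte, were higher in oocytes for 4 of 11 tested (36.4%), near the 33.1% of all genes, and in LCM mESCs for none, with a median difference of 1.07, near the 0.94 of all genes, that turned to -0.02 with upper-quartile scaling. The 4 were the pyruvate carriers Mpc1 (4.89 ± 1.36 and 2.65 ± 2.15) and Mpc2 (6.43 ± 1.26 and 4.16 ± 2.20), pyruvate carboxylase Pcx (5.63 ± 1.39 and 1.89 ± 2.06) and the monocarboxylate transporter Slc16a1 (3.40 ± 1.62 and 1.47 ± 1.71).

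Amino acid and one-carbon enzymes leaned to LCM mESCs, with 7 of 15 higher there, 1 higher in oocytes and a median difference of -1.59. Tdh, the threonine dehydrogenase that mouse ESCs are known to depend on, had a lowest, median and highest level of 9.36, 10.22 and 10.99 in LCM mESCs and of 0.00, 0.00 and 4.97 in oocytes. Psat1, of serine synthesis, was at 8.39 ± 1.37 and 1.52 ± 1.33, and Gldc, of glycine cleavage, at 7.72 ± 1.29 and 1.42 ± 0.93. The exception was Slc6a9, the glycine transporter by which oocytes and embryos control their volume, at 8.49 ± 0.67 in oocytes and 0.79 ± 1.19 in LCM mESCs without overlap.

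Enzymes of DNA methylation split by member. Of 19, 7 were higher in oocytes (36.8%), near the 33.1% of all genes tested, and 4 in LCM mESCs (21.1%), beside 7.98%. Uhrf1, which guides maintenance methylation, was at 8.21 ± 0.90 and 1.52 ± 1.16 without overlap, and Dnmt3a, the de novo methyltransferase of the oocyte, at 7.14 ± 0.56 and 2.53 ± 1.77 without overlap. Dnmt1 was at 9.20 ± 1.11 and 7.18 ± 0.68. Tet3, the dioxygenase that acts on the zygote's genome, was at 6.998 ± 1.38 and 0.39 ± 1.22, whereas Tet1, its relative in ESCs, was at 1.49 ± 1.13 and 5.70 ± 1.46. Kdm1b, the demethylase needed for maternal imprints, was at 8.55 ± 0.59 and 1.97 ± 2.47, and Kdm1a at 3.58 ± 1.23 and 6.92 ± 1.17.

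Of 10 tested genes of Polycomb complex 2, 2 were higher in oocytes (20%), below the 33.1% of all genes tested. In LCM mESCs 1 was higher (10%), near the 7.98% of all genes. Phf1, an accessory subunit, was at 7.37 ± 0.47 and 0.77 ± 1.17 without overlap, and Mtf2, its relative, at 4.80 ± 1.64 and 7.61 ± 0.74. The core subunits Eed (6.60 ± 0.97 and 7.95 ± 0.54) and Suz12 (6.32 ± 1.60 and 7.70 ± 1.09) were not called. The median of the list was 1.07 with RPM and -0.05 with upper-quartile scaling. Among 6 tested linker histones, 4 were higher in oocytes, and H1foo, the oocyte linker histone, was at 11.47 ± 1.48 in oocytes and 0.03 ± 0.13 in LCM mESCs. H1foo was at 9.49 ± 0.76 (9.68 over the 9 profiles) in primary follicles and 12.39 ± 0.45 in later ones.

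In several pairs of related genes, each cell type held a different member at the higher level. The 7 pairs drawn were picked after their values had been seen and are a description. In 5 of them, Tet1 and Tet3, Kdm1a and Kdm1b, Ccnd1 and Ccnd2, Mtf2 and Phf1, and the gap-junction genes Gjc1 and Gja4, 1 gene was higher in LCM mESCs and the other in oocytes. Gja4, the connexin of the oocyte's junctions with granulosa cells, was at 9.50 ± 1.05 and 1.15 ± 2.05, and Gjc1 at 1.88 ± 1.44 and 6.21 ± 1.91. For Ezh2 and Ezh1, the catalytic subunits of Polycomb complex 2, both means were higher in oocytes, Ezh2 at 8.82 ± 0.92 and 7.34 ± 0.86 and Ezh1 at 6.37 ± 1.05 and 2.71 ± 2.07, and Ezh1 alone was called. For Ldha and Ldhb, Ldha alone was called.

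**Figure D4:**
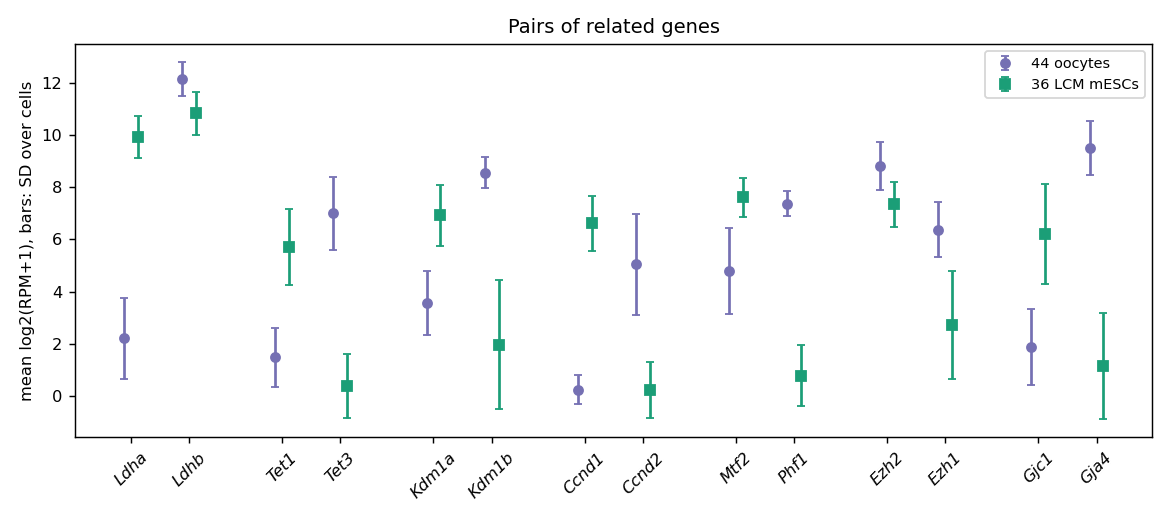
Mean level, log2 (RPM+1), with the SD over cells, of 14 genes in 7 related pairs, in 44 oocytes (violet circles) and 36 LCM mESCs (green squares). In 5 pairs the first gene is higher in LCM mESCs and the second in oocytes by more than 1.8.

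Signalling genes were mixed. Of 16 tested genes of LIF, FGF and Nodal signalling, 4 were higher in LCM mESCs (25%), beside 7.98% of all genes tested, and 2 in oocytes (12.5%), beside 33.1%. The median difference was -0.87, with -0.55 for later follicles, and it was 0.29 in exon sums, which hold oocytes of later follicles alone. Lefty2, a Nodal inhibitor that Nodal itself induces, was at 7.29 ± 2.16 in LCM mESCs and 0.06 ± 0.22 in oocytes, Lefty1 at 6.06 ± 3.13 with no read in oocytes, and Lifr, the LIF receptor, at 5.97 ± 1.71 and 2.34 ± 1.33. The kinase Jak1 (7.43 ± 0.54 and 4.38 ± 2.24) and the activin receptor Acvr2b (4.27 ± 1.31 and 0.80 ± 1.68) were higher in oocytes. Lefty1 varied widely among LCM mESCs, from 0.00 to 10.55.

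Of 10 tested Wnt targets, 4 were higher in LCM mESCs (40%), beside 7.98% of all genes tested, and 3 in oocytes (30%), near the 33.1%. The 4 were Notum (5.45 ± 1.78 and 0.02 ± 0.11 in oocytes), Sp5 (4.91 ± 2.36 and 0.04 ± 0.18), T (4.51 ± 2.65 and 0.17 ± 0.38) and Cdx1 (2.41 ± 2.37 and 0.05 ± 0.21). The 3 higher in oocytes were Nkd1 (6.42 ± 1.27 and 0.45 ± 1.25 in LCM mESCs), Znrf3 (4.26 ± 1.13 and 0.78 ± 1.26) and Lef1 (3.05 ± 1.96 and 0.61 ± 1.31). Of 8 tested MAPK targets, 2 were higher in each type (25%), beside 33.1% of all genes tested for oocytes and 7.98% for LCM mESCs. Etv5 was at 7.49 ± 1.00 in LCM mESCs and 2.07 ± 1.51 in oocytes without overlap, and Egr1 at 2.75 ± 2.00 in oocytes with no read in LCM mESCs. Dusp6 and Fos, early targets of the pathway, were below the level limit in all 80 cells. Of 15 genes of adhesion and gap junctions, 5 were higher in oocytes (33.3%), near the 33.1% of all genes tested, and 2 in LCM mESCs (13.3%), beside 7.98%, among the latter Cdh1, the cadherin of epithelia and ESCs, at 7.87 ± 0.78 and 5.76 ± 1.93.

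Outside the lists, the largest differences towards LCM mESCs belonged to Spp1, Stmn2, Slc7a3, Asns, Nid2, Gpx2 and L1td1, next to the listed Tdh, Ldha and Fgf4. Spp1, which encodes osteopontin, was at 9.72 ± 0.60 and had no read in the 44 oocytes, a share at least 20373-fold higher in LCM mESCs against the floor. Asns, asparagine synthetase, was at 10.08 ± 0.69 and 1.88 ± 1.62, and Slc7a3, a carrier of cationic amino acids, at 8.28 ± 1.08 and 0.07 ± 0.21. L1td1, an RNA-binding protein of ESCs derived from a transposon, was at 8.08 ± 1.12 and 0.14 ± 0.38. Towards oocytes the only unlisted gene among the 10 largest was Khdc1b, at 10.41 ± 0.50 and 0.09 ± 0.37.

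Genes without a read were more common in LCM mESCs. At a mean level of at least 6 in oocytes, 47 genes had no read in any of the 36 LCM mESCs, and at that level in LCM mESCs, 4 genes had no read in any of the 44 oocytes. The 4 were Spp1, Gpx2, Utf1 and Lefty1. Beside Zp2, Nlrp5 and Nobox, the most abundant of the 47 were Bcl2l10, an oocyte member of the Bcl2 family, at 9.61 ± 2.48, and Fbxw24, at 9.43 ± 2.55. Both were at lower levels in primary follicles, 6.37 ± 1.36 (6.60 over the 9 profiles) and 5.99 ± 1.57 (6.21 over the 9 profiles), than in later ones, 11.12 ± 0.95 and 11.04 ± 0.37.

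Ribosomal protein genes took fewer reads in oocytes. Of 83 tested cytosolic ribosomal protein genes, 19 were higher in LCM mESCs and 7 in oocytes, and 16 of the former did not overlap, with a median difference of -0.74. The list took 5.19% of reads in oocytes and 11.5% in LCM mESCs. Rpl3 was at 11.82 ± 0.26 in LCM mESCs and 8.02 ± 0.92 in oocytes, and Rpl21 at 8.66 ± 0.56 and 4.55 ± 0.55. Among the 7 that went the other way, Rps15 was at 9.49 ± 0.48 and 6.77 ± 0.59 without overlap, but in the exon sums it was at 8.87 and 7.66. Many of these genes have near-identical copies, 4 for Rpl3, and with upper-quartile scaling 44 were higher in LCM mESCs and 1 in oocytes.

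Of 92 tested nuclear genes of the respiratory chain and ATP synthase, 21 were higher in oocytes (22.8%), below the 33.1% of all genes tested, and 9 in LCM mESCs (9.78%), beside 7.98%. The median difference was 0.73, below the 0.94 of all genes, and turned to -0.46 with upper-quartile scaling and to -0.36 in exon sums. Atp5b, of the catalytic head, was at 11.34 ± 0.37 in LCM mESCs and 8.61 ± 0.50 in oocytes, and Uqcrc1, of complex III, at 8.95 ± 0.45 and 6.02 ± 1.45. Atp5k and Atp5e, small subunits of the synthase, were at 6.89 ± 1.08 and 8.11 ± 0.46 in oocytes and at 2.92 ± 0.99 and 4.43 ± 0.87 in LCM mESCs. Cox7a2l and Ndufv2 were among the 10 list members of smallest difference at a mean of at least 6 in both types, at 8.18 ± 0.38 and 6.65 ± 0.87 in oocytes and 8.15 ± 0.87 and 6.77 ± 1.25 in LCM mESCs. The others were Ccnb1, Mcm10 and Tpx2, given above, Ctnna1, which encodes a catenin, and the ribosomal protein genes Rpl17, Rpl31, Rps26 and Rps28, and the largest of these 10 differences was that of Rps28, at -0.14.

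Transcripts of the mitochondrial genome, looked at after their values had been seen, took 1.48% of reads in oocytes (0.672% to 3.42%) and 7.87% in LCM mESCs (2.81% to 10.8%). Of 13 such genes, 6 were higher in LCM mESCs, beside 7.98% of all genes tested, and 1 in oocytes, beside 33.1%. With these genes left out of the totals, 4738 genes were higher in oocytes and 1232 in LCM mESCs.

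Exon sums gave a second measure of the same contrast. They came from libraries with Y-shaped adapters of 5 oocytes and of 10 mESCs of both classes. By the study's methods these libraries were made from amplified single-cell cDNA, so that they are not an independent sample of cells. The 5 oocytes are labelled as secondary to antral, whereas the 3′ differences cover both follicle classes. Each of the 5 resembled the 3′ library of the same number most. The class labels of the mESCs may be exchanged and were therefore not used. A read in overlapping exons was counted more than once. The genes compared were limited by level, with limits of 4 in the 3′ reads and 2 in the exon sums, which left 7688. Across these 7688 genes the 2 differences had a Pearson r of 0.914, and 88.5% had the same sign. Of the 6007 called genes, 4069 were among those compared, and 54 of the 4069 (1.33%) had the opposite sign in the exon sums. The other called genes were not compared. The measures differed for a few genes at a high level in both types, since 11 of 196 genes at a mean of at least 8 in both were below 1 in the exon sums. Of the 11, 8 were mitochondrially encoded and were listed at 0 in the exon sums, and the others were Cd302, Heph and Rab39.

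**Figure D5:**
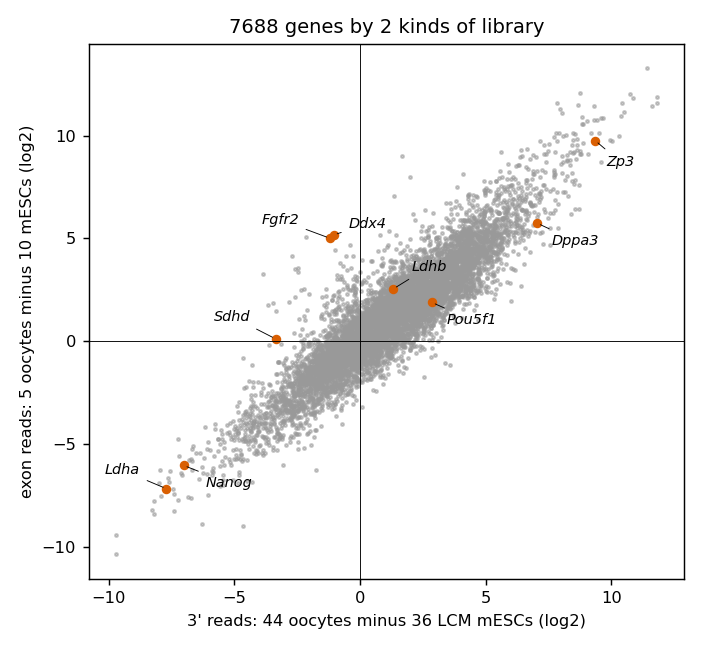
Difference of mean log2 level, oocytes minus mESCs, in 3′ reads (horizontal) and in exon sums (vertical, oocytes of later follicles only), for 7688 genes. Most genes lie near the diagonal (Pearson r 0.914), whereas Ddx4 and Fgfr2 lie below 0 on the horizontal and near 5 on the vertical axis.

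Genes of granulosa cells, the neighbours of the oocyte in the section, were measurable in the oocyte libraries. The summed level of 12 granulosa markers was 103.1 to 1960 RPM in oocytes (median 522), 0 to 236 RPM in LCM mESCs (median 20.5) and 2571 to 31961 RPM in granulosa cells (median 7101). Of 10 tested markers, 5 were higher in oocytes than in LCM mESCs (50%), beside 33.1% of all genes tested, and none in LCM mESCs. With upper-quartile scaling 3 of 8 tested were higher in oocytes and 1 in LCM mESCs. The 5 not called were Inhbb, Kitl, Hsd17b1, Cyp19a1 and Fst, and Fst had the higher mean in LCM mESCs, with a difference of -1.64. Inha, an inhibin subunit, was at 6.69 ± 2.04 in oocytes and 12.12 in granulosa cells, and Serpine2, a protease inhibitor, at 7.87 ± 1.21 and 9.49. The receptors Amhr2 and Fshr were at 4.23 ± 2.76 and 2.50 ± 1.36 in oocytes and at 7.43 and 7.52 in granulosa cells, and the transcription factor Foxl2 was at 3.23 ± 2.25 and 4.72. In exon sums, of oocytes of later follicles alone, Inha was at 4.75, Serpine2 at 7.62, Amhr2 at 2.64, Fshr at 0.44 and Foxl2 at 0.10. Amh and Inhba were low in both cell types of the ovary, at 0.49 ± 0.88 and 0.15 ± 0.36 in oocytes and 1.07 and 1.72 in granulosa cells. The part of granulosa RNA in the levels of the genes above was not tested. Without the 6 oocytes whose sum exceeded 1000 RPM, 4835 genes were higher in oocytes and 1211 in LCM mESCs.

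Of 5 tested theca and stroma markers and 2 tested blood and endothelium markers none was higher in either type, and their summed levels had medians of 4.03 and 5.73 RPM in oocytes and of 0.629 and 2.50 RPM in LCM mESCs. The highest oocyte reached 474 RPM for the theca and stroma markers and 17.2 RPM for those of blood and endothelium. Of 4 tested genes of feeders and differentiation, Otx2 was higher in LCM mESCs, at 2.33 ± 2.52 and 0.03 ± 0.13, and Gata4 (4.90 ± 1.38 and 0.05 ± 0.18, without overlap) and Gata6 (2.49 ± 1.71 and 0.15 ± 0.34) in oocytes, where granulosa cells were at 5.17 and 2.81. The Y-linked gene Eif2s3y was at 6.00 ± 1.73 in LCM mESCs and 0.15 ± 0.36 in oocytes. Another Y-linked gene, Ddx3y, was at 5.37 ± 0.58 in oocytes of female mice in the 3′ reads but at 0.67 in their exon sums, against 3.71 in mESCs.

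Genes higher in oocytes also outnumbered the others with other cells in the place of either type. With the 45 freshly dissociated mESCs, 4242 genes were higher in oocytes and 1353 in mESCs. With 16 serial sections of oocytes, 4772 and 1369 genes were. These sections come in pairs from the same oocyte and are all labelled secondary to antral. They held a median of 5583440 reads, against 1528484 in the 44 oocytes. Primary-follicle oocytes alone gave 4099 and 1324 genes, with 578 without overlap, and later oocytes alone 5262 and 1205, with 1111 without overlap. Oocytes of primary follicles had reads on 13163 ± 1267 genes (SD, n = 14, each library counted) and later ones on 13739 ± 544 (SD, n = 30), and these ranges overlapped.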

How the data were processed

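Whole-number counts per gene were deposited by the authors in tables of the series, with no normalization. The authors trimmed reads with fastp 0.20.0 and cutadapt 1.16, aligned them to GRCm38 with HISAT2 2.1.0, and counted 3′ reads near the ends of genes (within 10 kb) with HTSeq 0.10.0 and exon reads with featureCounts 2.0.1, per the labels and the study's methods; the step of each tool follows their text, and counting by strand is not given in the sources used here. Counting near a 3′ end can give a gene the reads of a neighbour or of a near-identical copy, which was found for 74 of 576 genes searched.

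The 2 tables were joined by gene identifier, which gave 22060 protein-coding genes, and counts were divided by the reads on these genes, scaled to 1000000 (RPM). A pseudocount of 1 was added before log2. A gene was tested when it exceeded 4 in at least 1 of the 80 cells, and called when the means differed by more than 1.8. With 1 sample for each cell type no p-value was computed. Depth and genes per cell are given with the results. Intervals are at 95% and the floor for a gene without a read is 3 counts over the group, both for counting error only. Exon counts of 5 oocytes and 10 mESCs served as a second measure. Other samples of the series were not used except freshly dissociated mESCs, granulosa cells and serial sections, for reference. Gene positions are from the GENCODE vM21 annotation.

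The members and the 30 gene lists were chosen with earlier results of these data known. Named by rule were the 4 markers, up to 4 members of each list with the largest differences plus those against the list, the 10 largest differences each way at a mean of at least 4, the 10 list members with the smallest differences at a mean of at least 6 in both types, and up to 5 genes each way at a mean of at least 6 without a read in the other type. Other members named in the text were chosen after their values were seen, and some genes named by the rule are given only in counts. Alternatives in scaling, pseudocount, filter, depth, follicle class and reference cells were tried. Python 3.11.15, numpy 2.4.6, pandas 2.3.3, scipy 1.17.1, R 4.3.3 and edgeR 4.0.16 (scaling factors only) were used.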

Additional observations from a re-analysis of the deposited data

Results flagged for a closer look

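Among 24 groups of 4 to 10 libraries examined for a library far from the others, 3 held one. Chance gives about 1 in 20 independent groups. Groups for different genes can hold the same libraries, and some values lie near 0, so that the 3 were not weighed against that rate. All 3 concern exon sums in the Y-shaped adapter libraries, on the log2 (RPM+1) scale. The highest of 5 oocytes was at 0.48 for Foxl2, a granulosa marker. Among the mESCs labelled LCM, the highest library was at 4.63 for Zp3 and at 0.25 for Ddx4. The class labels of these mESC libraries may be exchanged, so that the libraries may not be of laser-captured cells. No list member of 522 examined moved in opposite directions from the LCM mESCs in every oocyte of the follicle classes.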

How the results depend on the processing

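No paired analysis was possible because the result comes from no test. The counts moved by more than 1.5 times in few settings. With a pseudocount of 10, 1877 genes were higher in oocytes and 600 in LCM mESCs, and with upper-quartile scaling 3184 and 2352. With a difference above 1, 2136 genes were higher in LCM mESCs, and oocytes of secondary to antral follicles alone gave 1111 genes without overlap. Thinned to the shallowest library, every oocyte was above every LCM mESC for 176 genes instead of 293. Of 59 counts and differences in detectable genes over all settings, 50 did not move by more than 1.5 times (for detectable genes, 1 SD) and 9 did. Of 3019 values of named genes, 275 were counted as moved, by at least the larger SD over cells, and of 538 list medians 120 were. Of the 3019, 2 of called genes turned direction, both with exon sums, where Rpl38 was at -0.0577 and Sdhd at 0.11. The cause was not tested. Genes that were not called are outside the count of turned values, and Ddx4 and Fgfr2 are among those with the opposite sign in exon sums. With exon sums the list medians of mitosis, of LIF, FGF and Nodal signalling and of the respiratory chain changed sign. The exon sums hold oocytes of later follicles alone, for which the 3′ medians of these lists were 0.36, -0.55 and 0.64. The median of all genes moved by -0.33 with TMM scaling, -0.73 with upper-quartile scaling and 0.07 with median-of-ratios scaling. The list medians of MAPK targets, Polycomb complex 2, blood and endothelium, pyruvate handling, the respiratory chain and theca changed sign with scaling, and the other 24 of 30 did not. Leaving out mitochondrially encoded genes, oocytes rich in granulosa markers and summing alike libraries were chosen after seeing the data.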
